A study of Homo sapiens with 12 samples.

Results

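The messenger RNA of WNT7B, a secreted Wnt ligand, is described here with those of 7 further genes of the Wnt pathway in RNA recovered with the protein ADAR3 from glioblastoma cells. The 8 genes were given as Ensembl identifiers with their symbols, out of 31707 genes listed in the deposited tables: the ligands WNT7B (ENSG00000188064), WNT7A (ENSG00000154764), WNT5A (ENSG00000114251) and WNT5B (ENSG00000111186), the receptors FZD2 (ENSG00000180340) and FZD7 (ENSG00000155760), the co-receptor LRP6 (ENSG00000070018) and the effector CTNNB1 (ENSG00000168036). WNT7B was chosen by its measured value, since it had the largest fitted rise in ADAR3 immunoprecipitate (IP) over pre-immune IP, so its values are given as a description, without a test. The other 7 were taken for their place in the pathway, with results of these data known.

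The series set out to find RNA targets of endogenous ADAR3 in the human glioblastoma line U373-MG. Its 12 libraries form 3 groups of 4: RNA recovered with an antibody to ADAR3 (ADAR3 IP), RNA recovered with pre-immune serum (pre-immune IP), which measures what serum and beads retain, and RNA taken before IP (input). All groups came from unmodified cells of this 1 line, grown in medium with fetal bovine serum, exposed to 150 mJ/cm2 of ultraviolet light to crosslink RNA to protein, then lysed and sonicated. Ribosomal RNA was depleted, and a strand-specific library with 15 cycles of amplification was prepared from 1 µg of RNA for input and from all recovered RNA for each IP. Stocks of U373-MG held by cell banks have been found to derive from a different glioblastoma line, and the stock used is not given in the labels. Whether replicates were separate cultures is not given in the labels, and p-values measure only the spread between libraries, which may be technical.

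ADAR3 is a double-stranded RNA-binding member of the adenosine deaminase family with no known editing activity. Wnt ligands are secreted lipid-modified proteins that bind Frizzled (FZD) receptors on the receiving cell. With the co-receptor LRP6, some ligands stop the destruction of beta-catenin, the product of CTNNB1, which then enters the nucleus and acts with TCF and LEF factors on target genes. WNT7A and WNT7B are close relatives that act in this canonical branch and are best known in the brain for blood vessel formation and the blood-brain barrier. WNT5A and WNT5B are best known for signalling without beta-catenin, and WNT5A has been linked to invasion of glioma cells.

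In the RefSeq annotation of GRCh38.p14, all 8 are protein-coding genes. WNT7B spans 45920366 to 45977162 on chromosome 22. WNT7A lies at 13816258 to 13880071, CTNNB1 at 41199505 to 41240443 and WNT5A at 55465715 to 55505263, all on chromosome 3. WNT5B lies at 1617056 to 1647212 and LRP6 at 12116025 to 12267044 on chromosome 12, FZD2 at 44557484 to 44561262 on chromosome 17 and FZD7 at 202033855 to 202038441 on chromosome 2. Reads were counted per gene, so the data do not tell which part of a transcript was recovered, and levels are compared between groups for 1 gene at a time, never between genes.

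Depth differed between groups: reads assigned to genes numbered 23999234 to 30156884 in ADAR3 IP libraries, 4873428 to 12772412 in input and 1875461 to 4946149 in pre-immune libraries. Levels are given as reads per 1000000 reads assigned to genes (CPM). Because each library is scaled to its own total, a higher level means a larger share of the library and not a larger amount of RNA recovered. All RNA of a library is pooled, so more cells with a transcript and more transcript per cell cannot be told apart.

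WNT7B was abundant enough to be counted in ADAR3 IP and input and nearly absent from pre-immune IP. In ADAR3 IP replicates 1 to 4 its level was 13.2, 19.8, 22.2 and 25.8 CPM, from 383, 598, 604 and 619 reads. In input it was 9.32, 11.8, 12.5 and 14.2 CPM. Pre-immune replicates 1 and 2 held 1 read each, or 0.202 and 0.358 CPM, and replicates 3 and 4 held 0 reads. All ADAR3 IP and all input libraries thus lay far above all pre-immune libraries, whereas ADAR3 IP and input overlapped, since ADAR3 IP replicate 1 fell below input replicate 4. Mean levels were 20.3 ± 5.29 CPM with the ADAR3 antibody, 11.95 ± 2.03 CPM before IP and 0.140 ± 0.174 CPM with pre-immune serum (SD, n = 4 each).

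**Figure D1:**
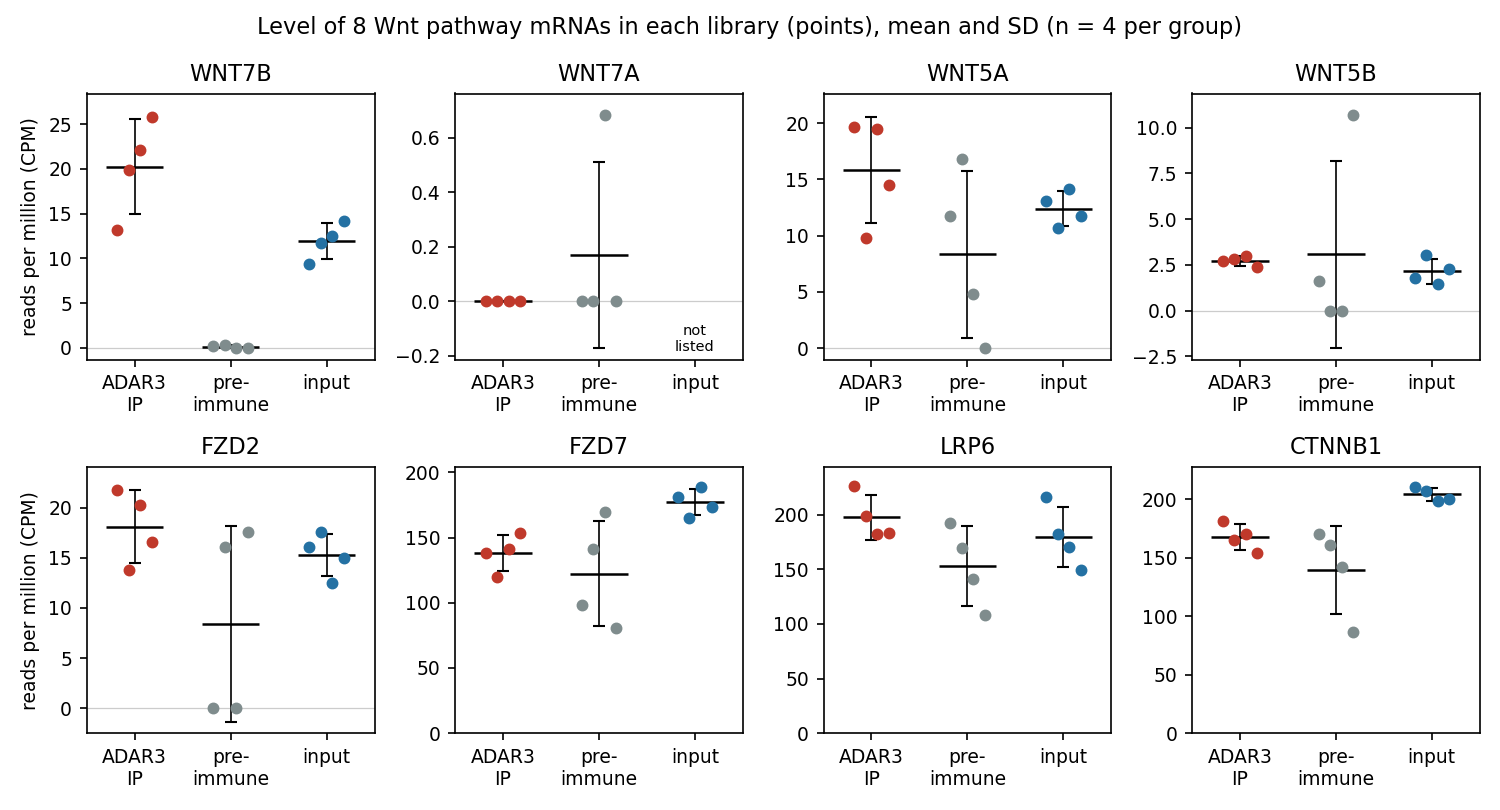
Level of each of the 8 mRNAs in CPM (vertical axis, a separate scale per gene) in the 4 libraries of each group (ADAR3 IP, pre-immune, input); points are libraries in order of replicate number, lines are means and error bars are SD. WNT7B lies between 13.2 and 25.8 CPM in ADAR3 IP and at or below 0.358 CPM in pre-immune IP, while the pre-immune libraries of WNT5A, WNT5B and FZD2 include both high values and 0.

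WNT7B stood farther from input in pre-immune IP than in ADAR3 IP. Its log2 fold change of ADAR3 IP over pre-immune IP, on normalized counts plus 1, was 6.53 ± 1.51 (SE), ranked 1 of 11112 genes, with the next at 6.29. Relative to input, ADAR3 IP stood at a log2 fold change of 0.69 ± 0.19 (SE) on CPM plus 1, ranked 1636 of 11272 genes. Pre-immune IP stood at -3.50 ± 0.67 relative to input, and only 21 of 11227 genes had a lower value.

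As a ratio of pooled reads scaled to depth, WNT7B was 139.9 times as high in ADAR3 IP as in pre-immune IP, a ratio that rests on 2 pre-immune reads (95% exact interval 38.7 to 1156). It was 1.71 times as high in ADAR3 IP as in input (2204 and 437 reads, 95% exact interval 1.54 to 1.90). In pre-immune IP it was at 0.0122 of the input level (95% exact interval 0.00148 to 0.0445). These intervals cover the counting error of reads taken as independent and are too narrow, since IP libraries spread more than that. A pre-immune library at the input level would have held 57.7, 32.6, 51.2 and 21.9 WNT7B reads in replicates 1 to 4, where 1, 1, 0 and 0 were found. All 4 libraries thus held fewer reads than their depth gives at the input level.

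**Figure D2:**
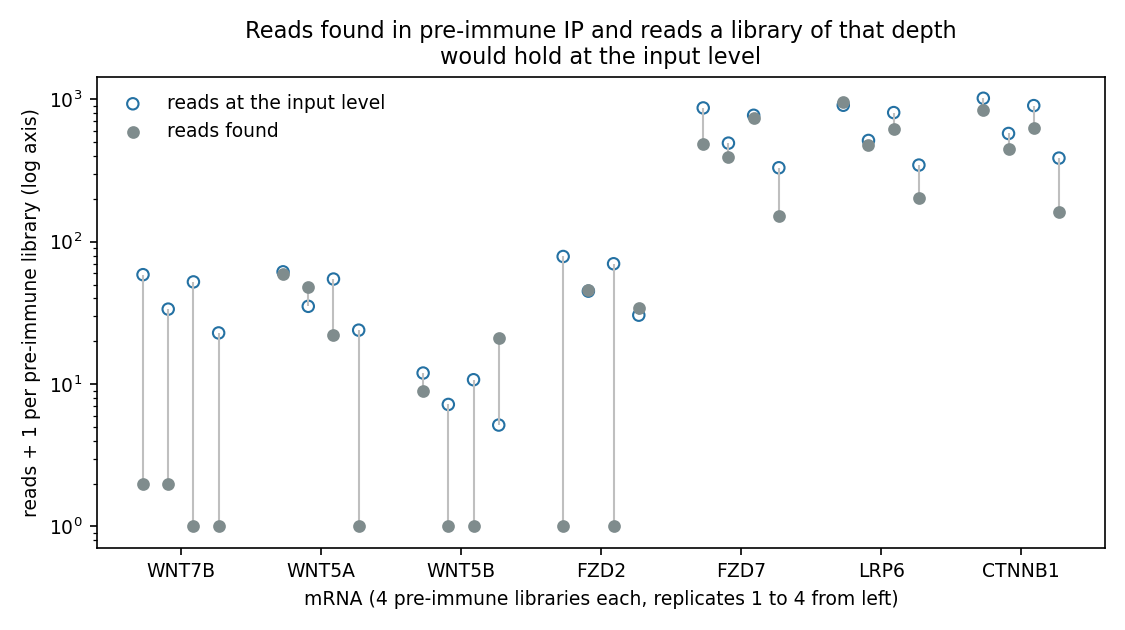
Reads found in each of the 4 pre-immune libraries (filled points) and reads that a library of the same depth would hold at the pooled input level (open points), plus 1, on a log axis, for the 7 mRNAs listed in the input table. For WNT7B all 4 libraries lie far below the open points, whereas FZD2 is near them in replicates 2 and 4 and at 0 in replicates 1 and 3.

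Loss of an mRNA from single pre-immune libraries was common at such levels, and loss from all of them was not. Among the 3213 genes whose input level lay within 2-fold of that of WNT7B, 1636 (50.9%) had at least 1 pre-immune library at 0 reads and 558 (17.4%) had at least 2 at 0. At most 2 reads over all 4 pre-immune libraries were found for 37 of the 3213 genes, or 1.15%, WNT7B included, against a median of 177 reads. In ADAR3 IP, 7 of the 3213 genes had a library at 0. These shares describe where WNT7B stood and are no test of it, since it was chosen for this difference.

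WNT7A, the closest relative of WNT7B, had 0 reads in every ADAR3 IP library. Over the group, a count of 0 allows a level of up to 0.0272 CPM (3 reads of the total, counting error only). It had 3 reads in pre-immune replicate 3, or 0.683 CPM, and 0 in the other pre-immune libraries. WNT7A was not among the genes of the input table, which lists no gene at 0 in all its libraries. The authors' deposited table gives WNT7A a log2 fold change of -4.86 with no adjusted p, a value that rests on those 3 reads. Both IPs were at or under 3 reads, so no fold is given here.

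WNT5A was found at overlapping levels in ADAR3 IP and input and at uneven levels in pre-immune IP. In ADAR3 IP replicates 1 to 4 it stood at 19.6, 9.75, 19.5 and 14.5 CPM, and in input at 13.1, 10.7, 14.2 and 11.7 CPM. In pre-immune IP the values were 11.7, 16.8, 4.78 and 0 CPM. Replicate 4, at 0 reads, is the shallowest library, and would have held 22.9 reads at the input level. Among the 3322 genes with an input level within 2-fold of that of WNT5A, 48.6% had at least 1 pre-immune library at 0. All 3 groups overlapped. The pooled ratio of ADAR3 IP to pre-immune IP was 1.75.

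WNT5B, the second ligand of that pair, was counted from few reads, at most 85 in any library. ADAR3 IP replicates 1 to 4 stood close together at 2.69, 2.82, 2.97 and 2.38 CPM, and input stood at 1.80, 3.06, 1.44 and 2.27 CPM. Pre-immune libraries held 8, 0, 0 and 20 reads, or 1.62, 0, 0 and 10.7 CPM, so that the highest and the lowest WNT5B levels of all 12 libraries were both in pre-immune IP. The level in replicate 4 came from only 20 reads. Among the 2770 genes with an input level within 2-fold of that of WNT5B, 81.0% had at least 2 pre-immune libraries at 0. WNT5B, like WNT7A, lay below the minimum of the fits (a mean of 50 normalized counts between the IPs, or of 5 CPM against input) and was not tested.

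FZD2, a Frizzled receptor, was also uneven in pre-immune IP. ADAR3 IP replicates 1 to 4 held 21.7, 13.8, 20.3 and 16.6 CPM and input 16.1, 17.6, 12.5 and 14.9 CPM. Pre-immune replicates 2 and 4 stood at 16.1 and 17.6 CPM, near the input levels, and replicates 1 and 3, the 2 deepest pre-immune libraries, held 0 reads where the input level would give 77.7 and 69.0. Pre-immune values were thus either near the input level or at 0. Among the 3733 genes with an input level within 2-fold of that of FZD2, 10.2% had at least 2 pre-immune libraries at 0. The log2 fold change of ADAR3 IP over pre-immune IP was 3.64 ± 1.84 (SE), ranked 211 of 11112 genes, while the ratio of mean CPM was 2.15; the 2 values at 0 weigh heavily in a mean of logs. The authors' deposited table gives 0.99 for the same contrast.

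FZD7, a receptor of the same family as FZD2, LRP6 and CTNNB1 were counted from 151 to 6550 reads in every library, with none at 0. FZD7 stood at 138, 119.7, 141 and 154 CPM in ADAR3 IP replicates 1 to 4 and at 181, 165, 189 and 174 CPM in input. All 4 ADAR3 IP libraries lay below all 4 input libraries. In pre-immune IP it stood at 98.1, 141, 169 and 80.5 CPM, overlapping both other groups.

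CTNNB1, which encodes beta-catenin, had the smallest input spread relative to its mean of the 7 listed there, at 211, 208, 198 and 201 CPM. ADAR3 IP replicates 1 to 4 stood at 182, 166, 170.1 and 155 CPM, all below input. Pre-immune IP stood at 170.2, 161, 142 and 86.4 CPM, also all below input, with the shallowest library lowest. LRP6, the co-receptor that couples Frizzled to beta-catenin, stood at 226, 199, 182 and 183 CPM in ADAR3 IP, at 216, 182, 170.1 and 149.7 CPM in input and at 193, 169.5, 141 and 108 CPM in pre-immune IP. Its 3 groups overlapped.

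ADAR3 IP was compared with input to ask which mRNAs took a different share of the antibody IP than of the starting RNA. This comparison separated many genes: of 11272 genes tested, 68.6% were called, 32.6% higher and 36.1% lower in ADAR3 IP (limma, Benjamini-Hochberg adjusted p under 0.05 over all genes tested). Of the 5 Wnt mRNAs tested, 2 were lower and 0 higher, shares that do not stand out from that background. FZD7 had a log2 difference of -0.36 with an SE of 0.083 (limma adjusted p = 0.0011) and CTNNB1 one of -0.28 with an SE of 0.071 (limma adjusted p = 0.00225), with all 4 ADAR3 IP libraries below all input libraries in both cases. The same full separation downwards held for 32.7% of genes tested. On simulated data, drawn once, 13 of 211 calls of this fit were false, a share of 0.0616, above its threshold of 0.05. That share depends on how many genes were set to change and is not carried over to the genes called here. WNT5A, FZD2 and LRP6 had values above 0 that missed the threshold.

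The log2 fold changes of these 3 were 0.29 for WNT5A (95% interval -0.13 to 0.70, limma adjusted p = 0.205), 0.22 for FZD2 (-0.12 to 0.57, limma adjusted p = 0.237) and 0.15 for LRP6 (-0.071 to 0.36, limma adjusted p = 0.217). Intervals are per gene and not adjusted for the number of genes. Each of the 3 passed the threshold under 1 of its 18 or 19 alternatives. Without ADAR3 IP replicate 2, where WNT5A was lowest, its value became 0.49 (limma adjusted p = 0.0137, range over alternatives 0.0137 to 0.461). Without input replicate 1, where LRP6 was highest, LRP6 rose to 0.24 (limma adjusted p = 0.0403, range 0.0403 to 0.601). With 1 draw of all libraries thinned to 4873428 reads, FZD2 reached 0.43 (limma adjusted p = 0.0381, range 0.0381 to 0.519).

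**Figure D3:**
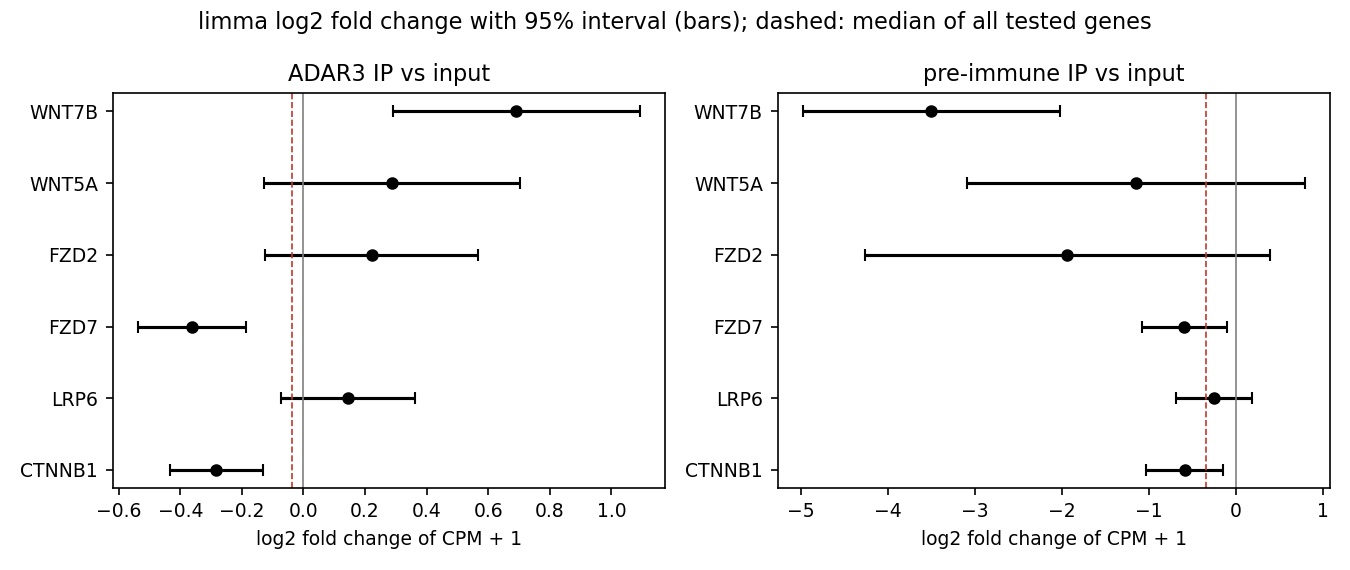
limma log2 fold change of CPM plus 1 (horizontal axis) of the 6 mRNAs above the minimum level, in ADAR3 IP against input (left) and pre-immune IP against input (right, wider axis); bars are 95% intervals and the dashed line is the median of all tested genes. FZD7 and CTNNB1 lie below 0 in ADAR3 IP, and WNT7B lies at 0.69 on the left and at -3.50 on the right.

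Pre-immune IP was compared with input in the same way, as the measure of what serum and beads retain. All 6 fitted Wnt mRNAs had values below 0, but so did the median of the 11227 genes tested, at -0.34, and none of the 5 that were tested was called, against 6.84% of genes tested in either direction (152, or 1.35%, higher and 616, or 5.49%, lower). On simulated data, drawn once, 31 of 110 calls of this fit were false, a larger share than its threshold of 0.05. Of these false calls, 30 were lower. The share depends on how many genes were set to change, so it does not give the share of false calls among the 5.49%. The count of 768 called genes fell to between 258 and 354 without any 1 input library, and rose to 1306, 1343 and 1443 without pre-immune replicate 2, 3 or 4. With median-ratio scaling the calls were 280 higher and 455 lower, and the median of all genes was -0.22. CTNNB1 stood at -0.59 (95% interval -1.04 to -0.14, limma adjusted p = 0.113) and FZD7 at -0.59 (-1.08 to -0.10, limma adjusted p = 0.138). FZD7 passed without pre-immune replicate 3, at -0.76 (limma adjusted p = 0.0376, range over alternatives 0.0376 to 0.317). LRP6 stood at -0.25 (-0.69 to 0.18, limma adjusted p = 0.464). Without pre-immune replicate 4, CTNNB1 stood at -0.37 and LRP6 at -0.096. FZD7 and CTNNB1 had an unadjusted p under 0.05 in limma, and edgeR and DESeq2 called 0 of the 5.

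WNT5A and FZD2, with 1 and 2 pre-immune libraries at 0, had wide intervals. WNT5A stood at -1.15 relative to input (95% interval -3.09 to 0.79, limma adjusted p = 0.455) and FZD2 at -1.94 (-4.27 to 0.39, limma adjusted p = 0.294). The FZD2 libraries behind this interval lay either near input or at 0, so its centre matches none of them. Leaving out 1 pre-immune library moved FZD2 to between -2.65 and -1.24, the latter without replicate 1 or 3. WNT5A moved to -0.29 without replicate 4, where it had 0 reads, and to -1.67 without replicate 2, where it was highest. CTNNB1 was fully separated below input, as were 16.9% of genes tested. WNT7B was too, which is a description only, since it was chosen on a difference that uses the same pre-immune values.

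**Figure D4:**
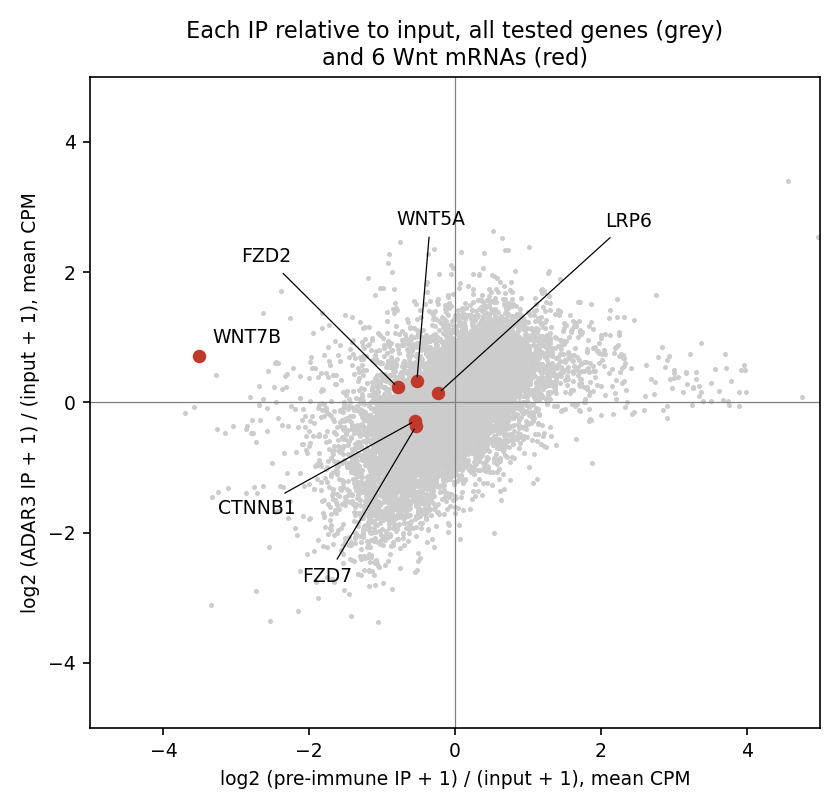
Each IP relative to input as log2 of mean CPM plus 1: pre-immune IP on the horizontal axis, ADAR3 IP on the vertical axis, grey points the 11107 genes above the minimum in the IP comparison and listed in both tables (16 of them outside the axes), red points 6 Wnt mRNAs. WNT7B lies at -3.51 and 0.71, apart from the other 5, which lie between -0.79 and -0.23 on the horizontal axis and between -0.36 and 0.33 on the vertical axis.

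ADAR3 IP against pre-immune IP is the contrast on which WNT7B was picked, so values of all 6 in it are listed without tests. Over all 11112 genes, 4.07% were called in either direction, 2.33% higher and 1.74% lower, and no call of the Wnt mRNAs is read against these shares. The calls were 259 higher and 193 lower, and 450 and 131 with TMM scaling. Their number, 452, fell to between 173 and 218 without any 1 ADAR3 IP library and rose to 772 without pre-immune replicate 4. Beside WNT7B at 6.53, the others stood at log2 fold changes of 2.19 ± 1.49 (WNT5A), 3.64 ± 1.84 (FZD2), 0.15 ± 0.22 (FZD7), 0.32 ± 0.19 (LRP6) and 0.23 ± 0.21 (CTNNB1), each with its SE. The median over all genes tested was 0.25, so the last 3 stood near the typical gene.

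WNT7B itself, but no other of the 6, had all ADAR3 IP libraries above all pre-immune libraries, as did 8.80% of genes tested. WNT7B was chosen on this difference, so its separation is a description. Single pre-immune libraries moved the other values. Without replicate 4, the shallowest, WNT5A stood at 0.56, LRP6 at 0.18, CTNNB1 at 0.025 and FZD7 at -0.018. FZD2 stood at 2.41 without replicate 1 or replicate 3, where it had 0 reads, and at 4.84 and 4.89 without replicate 2 or 4, where it was counted. The log2 fold changes in the authors' deposited table were 7.01 for WNT7B, 0.82 for WNT5A, -0.26 for WNT5B, 0.99 for FZD2, 0.10 for FZD7, 0.28 for LRP6 and 0.18 for CTNNB1. These 3 comparisons share libraries in pairs, so they are not independent of each other.

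Replicates of the IPs spread far more than counting noise, and those of most Wnt mRNAs did too. The index of dispersion used here is the chi-square of the 4 read counts of a gene against counts proportional to depth, divided by 3. It is 1 when only counting noise is present and grows with the number of reads. Its median over 11274 genes was 30.2 for pre-immune IP, 21.6 for ADAR3 IP and 1.84 for input, although pre-immune libraries held the fewest reads. In ADAR3 IP the index ranged from 19.96 for CTNNB1 to 58.4 for LRP6 among the 6 mRNAs above the minimum, with 37.8 for WNT7B. WNT5B was an exception there, at 0.601 from 301 reads.

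In pre-immune IP the index was 52.1 for FZD2, from only 78 reads, and 16.2 for WNT5A. For WNT7B it was 0.640, since 2 reads leave little to vary. In input it was 1.41 for CTNNB1, 1.48 for WNT5A, 1.96 for FZD2, 3.92 for WNT7B and 4.48 for FZD7. LRP6 differed, with an input index of 46.3, exceeded by 118 of the 11274 genes. Its input level in replicate 1 was 216 CPM, against 149.7 CPM in replicate 4. Exact intervals from pooled IP reads are therefore narrower than the spread between libraries.

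The genes most like WNT7B across the 12 libraries were sought by the correlation of log2(CPM + 1). The nearest among 11274 genes was ENSG00000139192 (Pearson r = 0.98), followed by ENSG00000184209 (r = 0.98). ENSG00000139192 had a median of 9.75 CPM with the ADAR3 antibody, 0 with pre-immune serum and 6.64 before IP, and ENSG00000184209 had medians of 12.9, 0 and 9.997 CPM. Both thus were nearly absent from pre-immune IP and, by their medians, above the input level in ADAR3 IP, as WNT7B was. Their ADAR3 IP and input libraries overlapped, as those of WNT7B did. The lowest ADAR3 IP and highest input levels were 6.23 and 7.44 CPM for ENSG00000139192. For ENSG00000184209 they were 10.1 and 11.7 CPM. The third gene took a far larger share of reads, with medians of 11754, 3424 and 11656 CPM in the same order. Of the Wnt mRNAs, FZD2 came nearest (r = 0.62), ranked 1392 of 11273 genes. The libraries form 3 groups, so these correlations describe mainly the 3 group levels.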

How the data were processed

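RIP-seq of ADAR3 (IP, pre-immune control and input, 4 libraries each) was analysed, with groups and replicate numbers from the titles. The submitters' processing notes list STAR 2.7.7a, featureCounts, DESeq2 and GRCh38 with no roles. The sources used here do not give the annotation or strand setting. Reads shared with overlapping or antisense genes are therefore uncertain. The molecule label reads polyA RNA, whereas the labels' protocols describe ribosomal RNA depletion.

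The authors deposited a normalized signal (counts over each library's size factor) in separate tables for the IPs and for input. Of these values, 100% were whole multiples of 1 read (tolerance 0.001 reads), so reads and depths were recovered and CPM computed from them on 1 scale. The authors also deposited log2 fold changes and adjusted p-values of ADAR3 IP over pre-immune IP. The column of log2 fold changes in the input table equals log2 of the input mean and is no comparison.

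limma 3.58.1 (R 4.3.3) with a variance trend was fitted across all genes on log2(value + 1), Benjamini-Hochberg at 0.05: on deposited values with a mean of at least 50 for the 2 IPs, and on CPM with a mean of at least 5, for genes in both tables, against input. The pseudocount pulls the fold changes of low genes towards 0, whereas single libraries at 0 reads weigh heavily in a mean of logs. Between the IPs, FZD2 stood at 3.64 in limma and 0.99 in DESeq2, and WNT5A at 2.19 and 0.82. WNT7B went the other way, at 6.53 and 7.01. The fits were tested on simulated data, drawn once per comparison. Fewer genes were set to change there than were called here, and the share of false calls depends on that number. The share of false calls was above the threshold of 0.05 for pre-immune IP against input (0.282) and for ADAR3 IP against input (0.0616). Between the 2 IPs it was 0.0192. edgeR 4.0.16, DESeq2 1.42.0 and further settings were alternatives. Same-numbered libraries deviated together at correlations of -0.0964 to 0.318, not all over 0.1, so numbers were not taken to pair libraries.

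The 8 genes and all lists were chosen with earlier results of these data known. The rule named the 8 genes, called genes of 5 Wnt pathway lists and the 3 genes most like WNT7B, of which 2 are given by identifier. Of 59792 reference genes 0 carried an Ensembl ID, so the lists and the markers of glioblastoma and other cell types were not analysed here, nor were transcript lengths.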

Additional observations from a re-analysis of the deposited data

Results flagged for a closer look

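Of 22 sets of 4 libraries examined (the levels of the 8 mRNAs in each group, where they varied), 2 had a library that stood apart from the other 3 by more than Dixon's 95% critical value allows. Chance alone would mark about 1 set in 20. WNT5B in pre-immune replicate 4 was at 10.7 CPM, from 20 reads in the shallowest library, against 0 to 1.62 CPM in the other 3. WNT7A in pre-immune replicate 3 was at 0.683 CPM, from 3 reads, against 0 in the other 3; with 3 libraries at 0 any reads in the other library are marked, so that chance rate does not apply to this set. FZD2 in pre-immune IP, with 2 libraries at 0 and 2 at 16.1 and 17.6 CPM, was not marked, because the test looks for a single library apart.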

How the results depend on the processing

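The log2 fold changes of the 6 Wnt mRNAs kept their direction in 331 of 332 combinations of gene, comparison and alternative. The exception was FZD7 in ADAR3 IP against pre-immune IP without pre-immune replicate 4, at -0.018. These alternatives refit the same libraries and include the contrast on which WNT7B was picked, so the count is a description. How many of all genes kept their direction was not counted. The 95% intervals of WNT5A, FZD2 and LRP6 against input include 0. Against input, FZD7 and CTNNB1 were called lower in ADAR3 IP in all 19 alternatives run, at -0.41 to -0.30 and -0.32 to -0.24. WNT7B stayed between 0.56 and 0.87 there. In the contrast it was chosen on, its value ranged from 4.86 with a pseudocount of 5 to 8.40 with one of 0.1. Its value relative to input in pre-immune IP ranged from -6.18 with DESeq2 to -1.71 with a pseudocount of 5. At a minimum level 5 times higher WNT7B, WNT5A and FZD2 were not tested. Over all genes, ADAR3 IP against pre-immune IP gave 452 calls, 1726 without a filter, 1242 with edgeR, 2581 with DESeq2, 197 with variance weights per group, and 173 to 772 when 1 library was left out. Pre-immune IP against input gave 768 calls, 4277 without a filter, 2021 with DESeq2, 511 with those weights, and 258 to 1443 when 1 library was left out. ADAR3 IP against input gave 7738, and 7096 to 7808 when 1 library was left out. The cause was not tested. With the replicate number as a block these 3 comparisons gave 403, 954 and 7882 calls, and no call of the 5 tested mRNAs changed. Own-numbered libraries correlated best in 6 of 12 cases. All of these were between an IP and input, not between the IPs, so a link of the numbers to input libraries was not excluded. The highest correlation, 0.318, was between ADAR3 IP and input of replicate 4. TMM scaling moved the median of all genes between the IPs from 0.25 to 0.40. Depth limits how closely the pre-immune values of WNT7B, WNT7A and WNT5B are measured, with at most 1, 3 and 20 reads in any library. For WNT7B, the input level would have given 21.9 to 57.7 reads per pre-immune library.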

Other observations

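Libraries with the same replicate number held WNT7B in the same order in ADAR3 IP and input. ADAR3 IP also exceeded input within every number, although the groups overlapped. The ratios of ADAR3 IP to input within numbers 1 to 4 were 1.42, 1.69, 1.77 and 1.81. LRP6 was also above input within every number, at ratios of 1.05, 1.09, 1.07 and 1.23, and CTNNB1 and FZD7 were below it within every number. FZD2 and WNT5A were below input within number 2, at 0.784 and 0.914, and above it within the other 3. Whether the numbers mark shared cultures is not stated in the labels, and numbers were not taken to pair libraries. How many of all genes lay on 1 side of input within every number was not counted. In this comparison 68.6% of genes tested were called, so lying on 1 side is not read as a trait of these mRNAs. A different trait, all ADAR3 IP libraries below all input libraries, held for 32.7% of genes tested. It gives no background for WNT7B or LRP6.

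LRP6 was highest in replicate 1 and lowest in replicate 4 in both input (216 and 149.7 CPM) and pre-immune IP (193 and 108 CPM). The only mRNAs of the 8 with all 4 pre-immune libraries above 0 reads were FZD7, LRP6 and CTNNB1. This was usual at their levels. Of genes with an input level within 2-fold of FZD7, LRP6 or CTNNB1, 99.8%, 99.9% and 99.8% had no pre-immune library at 0.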
